A study of Canis lupus familiaris with 8 samples.

Results

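Fibrillar collagens are the rope-like proteins that give a heart valve leaflet its tensile strength, and the genes described here are COL1A1, COL1A2 and COL3A1. Their probe sets were chosen by the gene symbol in the array's annotation, whatever their values, which gave 11 of the 23836 probe sets that are not array controls. COL1A1 had 2 of the 11, COL1A2 had 5 and COL3A1 had 4, and 10 of them were bright enough to be tested. The annotation names 6540 genes by a single symbol, these 3 included. The leaflet studied was the anterior mitral one, kept frozen, from each of 8 dogs, and its RNA was read on 1 Affymetrix array. The 4 affected dogs had degenerative mitral valve disease, in which the leaflets thicken and lose their layered structure, and came from 3 breeds. Affected 1 was a Lhasa apso, affected 3 a Dachshund, and affected 2 and 4 were each a Miniature poodle. The 4 control dogs were all beagle crosses. Breed and disease therefore changed together and cannot be told apart, and the sources used here do not give the dogs' age, sex or stage of disease.

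Type I collagen is assembled from chains encoded by COL1A1 and COL1A2, and type III collagen from identical chains encoded by COL3A1. Both are made as procollagens by fibroblast-like cells, which in a valve are called interstitial cells, and are trimmed, packed into mixed fibrils and crosslinked outside the cell. In the mitral leaflet, type I collagen forms the dense load-bearing layer, and type III collagen lies with it in thinner fibrils.

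Values are MAS5 signals, a linear brightness in arbitrary units that combines the probes of a probe set. Every array had the same mean after 2% was trimmed off each end, while array medians ran from 124 (affected 3) to 191 (affected 2). Differences are of log2 signal, affected minus control, from limma fitted over all 14705 probe sets bright enough to be tested, with 4 dogs per group and Benjamini-Hochberg adjustment. No probe set on the array passed an adjusted p of 0.05 in this fit (0% in either direction), while 7.83% had an unadjusted p under 0.05 (4.02% higher and 3.81% lower in affected dogs). The groups did not overlap for 4.66% (2.35% higher and 2.31% lower). Control 2 stood apart: its mean correlation with the other controls over the tested probe sets was 0.827, against 0.887 to 0.914 for the other controls, and it was the dog with the lowest signal for 21.5% of all tested probe sets, against 7.02% to 16% for each other dog. Results for the collagens and for many other named genes are given with and without it below, and counts over gene lists only with it. All leaflets carried signal of valve interstitial cells, for which 5 of 13 listed markers were tested, with mean log2 signals of 13.87 to 14.43 in affected dogs and of 12.39 to 14.11 in controls. RNA came from whole leaflet tissue, so fewer cells of a type and less RNA per cell cannot be told apart.

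COL1A1 did not differ between affected and control dogs beyond their spread, and was far lower in control 2 than in any other dog. The brighter of its probe sets, 1582455_at, had signals of 8832, 8781, 11732 and 7867 in affected 1 to 4, and of 10930, 1351, 16936 and 12406 in control 1 to 4. Control 2 was thus the lowest of all dogs and control 3 the highest, so the affected dogs lay inside the range of the controls. The other probe set, 1585698_at, had signals of 4280, 4422, 4091 and 2477 in affected dogs and of 4742, 602, 6588 and 4614 in controls, the same order at both ends. The difference was 0.30 ± 0.67 (SE) for the first, with a 95% interval from -1.18 to 1.78, and 0.29 ± 0.65 for the second. Their adjusted p in limma was 0.919 and 0.922.

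COL1A2 gave different pictures through its probe sets. The brightest, 1582723_at, was nearly level apart from control 2, with signals of 23186, 20780, 22873 and 19962 in affected dogs and of 19322, 6903, 25660 and 23783 in controls. Its signal reached 63.7% of the brightest signal on the array in affected dogs (affected 4) and 88.5% in controls (control 1). Over all dogs it varied 3.72-fold, the narrowest range among the tested COL1A2 probe sets, and whether signals this bright were compressed was not tested. A second probe set, 1594426_at, varied 14.8-fold, with signals of 3933, 4450, 8256 and 3337 in affected dogs and of 8957, 860, 12741 and 9069 in controls. Here every affected dog lay below control 1, 3 and 4 and above control 2.

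The remaining COL1A2 probe sets were dimmer. Signals of 1594427_at, which was designed from the same source sequence as 1594426_at, were 324, 198, 323 and 147 in affected dogs and 260, 66.9, 301 and 441 in controls. Signals of 1589596_at were 1078, 1511, 466 and 559 in affected dogs and 394, 418, 1857 and 1081 in controls, and this probe set was lowest in control 1, not in control 2. The last, 1603402_at, was too dim to be tested, with 3 of 4 affected dogs and 2 of 4 controls at the floor of 34.2. The 4 tested probe sets of COL1A2 differed by 0.36 ± 0.38 (1582723_at, 95% interval -0.49 to 1.21), -0.22 ± 0.74 (1594426_at), 0.09 ± 0.55 (1589596_at) and 0.10 ± 0.55 (1594427_at), with adjusted p in limma from 0.813 to 0.974.

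COL3A1 was lower in 3 affected dogs than in 3 controls on its brightest probe set, with affected 3 and control 2 breaking the pattern. On 1591762_at the signals were 5168, 5624, 11112 and 5432 in affected dogs and 10509, 1426, 9871 and 12132 in controls. Affected 3 lay among the controls, and control 2 lay below every affected dog. On 1593385_at the signals were 724, 877, 1136 and 1296 in affected dogs and 1239, 472, 2524 and 2729 in controls, again with control 2 lowest.

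The other probe sets of COL3A1 did not follow these. Signals of 1604901_at were 1302, 1638, 267 and 523 in affected dogs and 362, 301, 929 and 704 in controls, so affected 3, high on the brightest probe set, was lowest on this one. Signals of 1593386_at, designed from the same source sequence as 1593385_at, were 177, 138, 92.7 and 159 in affected dogs and 152, 104, 131 and 235 in controls, a 2.54-fold range. The differences were -0.0082 ± 0.62 (1591762_at, 95% interval -1.39 to 1.37), -0.53 ± 0.51 (1593385_at), 0.52 ± 0.58 (1604901_at) and -0.11 ± 0.35 (1593386_at), with adjusted p in limma from 0.792 to 0.998.

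**Figure D1:**
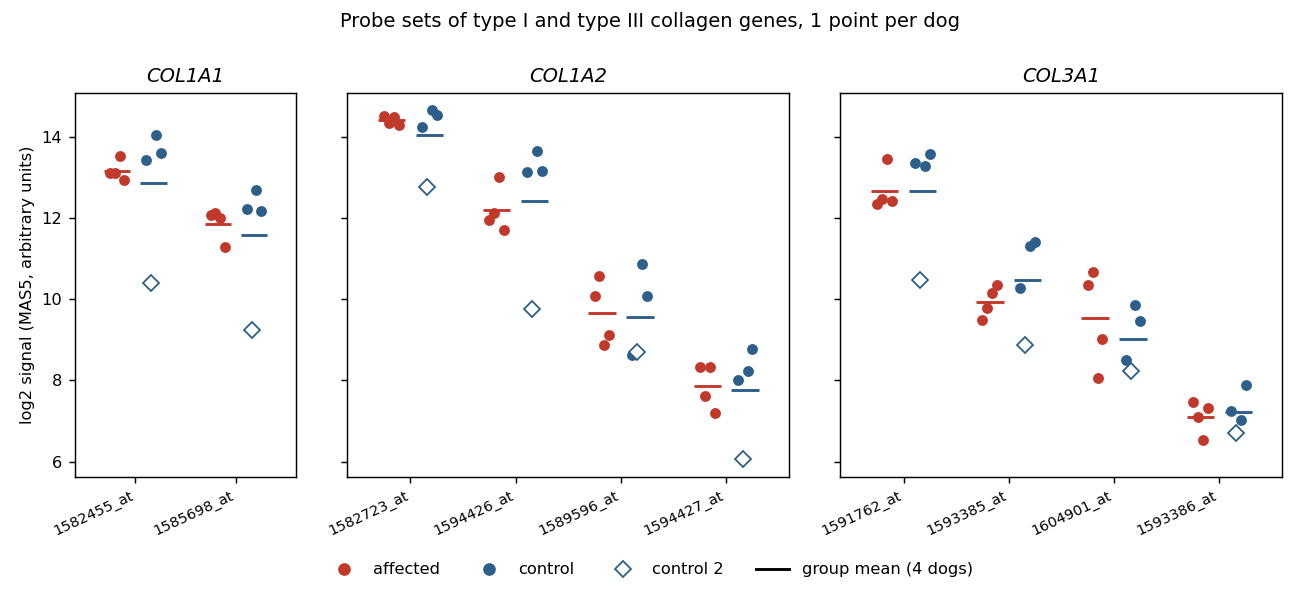
Log2 signal (vertical axis, arbitrary units) of the 10 tested probe sets of COL1A1, COL1A2 and COL3A1, with 1 point per dog, affected dogs left of controls, and a bar at each group's mean of 4 dogs. Control 2 (open diamond) is the lowest dog for 7 of the 10, and the groups overlap for all of them.

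Among the 10 tested members, 6 had a higher and 4 a lower mean in affected dogs, with a median difference of 0.095, beside a median of 0.0065 over all 14705 tested probe sets. None had an unadjusted p under 0.05, the smallest being 0.325, and the groups overlapped for every member. On the probe sets that stand for each gene, the SD of log2 signal was 0.25 in affected dogs and 1.66 in controls for COL1A1, 0.11 and 0.88 for COL1A2, and 0.52 and 1.47 for COL3A1 (n = 4 each). Without control 2 the SD of the 3 remaining controls was 0.33 for COL1A1, 0.21 for COL1A2 and 0.15 for COL3A1, so for COL3A1 the affected dogs were then the more spread. The highest signal was 12.5 times the lowest over 8 dogs for COL1A1 and 2.15 times without control 2. For COL3A1 these ranges were 8.51-fold and 2.35-fold.

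Leaving out control 2 turned the direction for COL1A1 and COL1A2. The brightest probe sets then differed by -0.52 ± 0.24 for COL1A1 (adjusted p in limma 0.592), -0.07 ± 0.20 for COL1A2 (0.939) and -0.74 ± 0.29 for COL3A1 (0.540). Of the 10 members 9 were then lower in affected dogs, with a median of -0.48, while the median over all tested probe sets was -0.0017. The members furthest from 0 were 1594426_at of COL1A2 at -1.11 ± 0.32 and 1593385_at of COL3A1 at -1.06 ± 0.33, with adjusted p in limma of 0.381 and 0.412. Every affected dog lay below the 3 remaining controls for 2 of 10 members (1594426_at and 1585698_at), a pattern found in 5.23% of all tested probe sets. The opposite pattern, affected above all 3, held for 0 of 10 members and 3.69% of all. For COL3A1, whose difference over 8 dogs was close to 0, the sign also turned to positive without any of affected 1, 2 and 4 or control 1, 3 and 4, at 0.059 to 0.29.

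Without both control 2 and affected 3, the dogs at the ends of the heart muscle markers described below, 1594426_at differed by -1.38 ± 0.24 with an adjusted p in limma of 0.0423, in a fit of 3 against 3 dogs that called 0.673% of all probe sets lower and 0.197% higher. COL3A1 on 1591762_at was at -0.998 ± 0.208 (adjusted p in limma 0.0690) and COL1A1 on 1582455_at at -0.64 ± 0.24 (0.235). On each of these probe sets affected 3 was the highest affected dog and control 2 the lowest control. Leaving out both therefore had to lower the difference, and these adjusted p values are no support for one. COL1A2 on its brightest probe set stayed near 0, at -0.10 ± 0.22 (0.848). The groups then did not overlap, affected below control, for 4 of 10 members, beside 12% of all tested probe sets, and affected above control for 0 of 10, beside 10.8%.

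**Figure D2:**
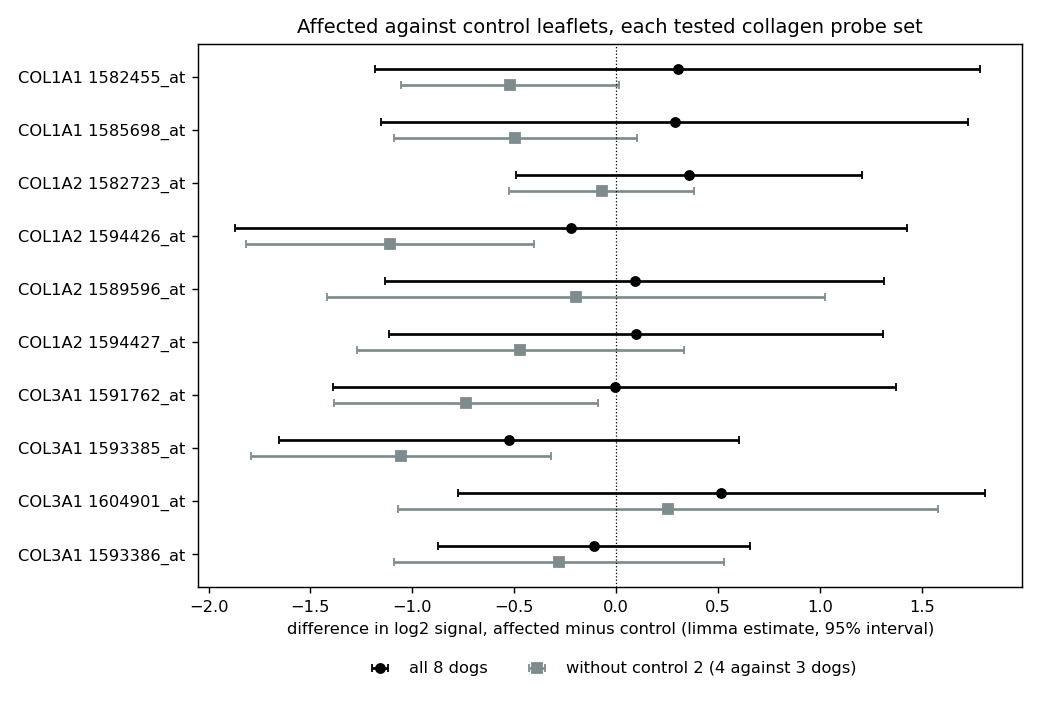
Difference in log2 signal, affected minus control (horizontal axis), with the 95% interval from limma, for each tested probe set with all 8 dogs (black circles) and without control 2 (grey squares). Without that dog 9 of the 10 differences lie below 0.

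Probe sets of 1 gene were compared with each other within each dog, 13 pairs in all, and no pair passed a test of affected against control dogs (exact permutation test over 70 splits of the dogs, two-sided, smallest p = 0.257, 0.975 after adjustment over the pairs). The greatest gap was in COL3A1, where 1593385_at minus 1604901_at averaged 0.41 in affected dogs and 1.46 in controls (exact p = 0.314). Across the 8 dogs, the COL1A1 probe sets followed each other with Pearson's r = 0.977 (exact permutation p = 0.00104, 0.0198 adjusted over 19 relations) and Spearman's rho = 0.786 (exact p = 0.0279, 0.106 adjusted). Without control 2 and control 3, the dogs farthest from the median, r was 0.641 (exact p = 0.0958). For COL3A1, 1591762_at followed 1593385_at with r = 0.810 (exact p = 0.00732, 0.0278 adjusted) and rho = 0.714 (exact p = 0.0576, 0.182 adjusted), and r was 0.571 without control 2 and control 4. The same probe set and 1604901_at had r = 0.105 (exact p = 0.83) and rho = -0.167 (exact p = 0.703), and r = -0.682 without those dogs (exact p = 0.118). Of the 13 pairs within a gene, 5 passed the adjustment for r over all 8 dogs, and 0 relations of the whole family passed without control 2.

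Between genes, 2 of the 3 pairs passed the adjustment for r over the 8 dogs, and none of the 3 passed it for rho. COL1A1 and COL1A2 had r = 0.975 (exact permutation p = 0.00459, 0.0250 adjusted) and rho = 0.810 (exact p = 0.0218, 0.106 adjusted), and r = 0.439 without control 2 and control 3 (exact p = 0.343), so this relation rests on those dogs. COL1A1 and COL3A1 had r = 0.946 (exact p = 0.00283, 0.0250 adjusted) and rho = 0.786 (exact p = 0.0279, 0.106 adjusted), and r = 0.964 without control 2 and control 3 (exact p = 0.0194). COL1A2 and COL3A1 had r = 0.882 (exact p = 0.0303, 0.0720 adjusted) and rho = 0.452 (exact p = 0.268), and r = 0.237 without those dogs. Without control 2 alone, r was 0.706 for COL1A1 and COL1A2 (exact p = 0.0764), 0.782 for COL1A1 and COL3A1 (exact p = 0.0462) and 0.328 for COL1A2 and COL3A1 (exact p = 0.456). Whether the pairs differ in r was not tested.

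The ratio of type I to type III was taken within each dog, as the mean log2 signal of COL1A1 and COL1A2 minus that of COL3A1 on their brightest probe sets. The scaling of an array cancels in it, but its level depends on the probes, so it is read only between dogs. It was 1.47, 1.26, 0.56 and 1.21 in affected dogs and 0.47, 1.10, 1.08 and 0.50 in controls. Thus 3 of 4 affected dogs lay above every control, and affected 3, the Dachshund, lay with control 1 and 4 at the low end. The mean was 1.12 ± 0.39 in affected dogs and 0.79 ± 0.35 in controls (SD, n = 4 each), a difference of 0.34 ± 0.26 (SE) with an exact permutation p of 0.171, or 0.533 adjusted over the 4 ratios computed. Samples of 4 against 4 cannot give a p under 0.0286. Without control 2 the difference was 0.44 (exact p = 0.143), and without affected 3 it was 0.53 (exact p = 0.0857).

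The chains of type I did not keep a fixed ratio to each other. COL1A1 minus COL1A2 was -1.39, -1.24, -0.96 and -1.34 in affected dogs and -0.82, -2.35, -0.60 and -0.94 in controls, a difference of -0.06 ± 0.41 (exact permutation p = 0.943). On these probe sets control 2 was far below all other dogs, and the other controls lay above every affected dog. Without control 2 the difference was -0.45 (exact p = 0.0571). COL1A1 minus COL3A1 averaged 0.51 ± 0.30 in affected dogs and 0.20 ± 0.39 in controls (exact p = 0.286), and COL1A2 minus COL3A1 averaged 1.74 ± 0.49 in affected dogs and 1.38 ± 0.64 in controls (SD, n = 4 each, exact p = 0.400). Without control 2 the last of these differed by 0.67 (exact p = 0.0857). Control 2 had the lowest COL1A1 to COL3A1 ratio of the 8 dogs, at -0.08, and the highest COL1A2 to COL3A1 ratio, at 2.28. The place of control 2 in COL1A1 to COL1A2 and in COL1A2 to COL3A1 depends on the COL1A2 probe set, as given next.

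The ratios depended on the probe sets used. With 1594426_at for COL1A2, chosen after seeing the data, COL1A1 minus COL1A2 was 1.17, 0.98, 0.51 and 1.24 in affected dogs and 0.29, 0.65, 0.41 and 0.45 in controls. Control 1, 3 and 4 then lay below every affected dog and control 2 in the middle, the reverse of the order on the brightest probe set, and the difference was 0.52 (exact permutation p = 0.0571). COL1A2 minus COL3A1 on 1594426_at was -0.73 in control 2, the lowest of the 8 dogs, where on 1582723_at it was the highest. On the dimmer 1589596_at and 1594427_at, control 2 was again the lowest dog for COL1A1 minus COL1A2, at 1.69 and 4.34. For COL1A2 minus COL3A1 control 2 was the highest on 1589596_at, at -1.77, and below only affected 1 on 1594427_at, at -4.41. The type I to type III difference was 0.048 with 1594426_at (exact p = 0.886), against 0.34 with the brightest probe set. Over the 24 pairings of a type I with a type III probe set, 16 differences were positive and 8 negative, from -0.74 to 0.89. The smallest exact permutation p was 0.0571, or 0.857 adjusted over the pairings, and the groups overlapped for all 24.

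**Figure D3:**
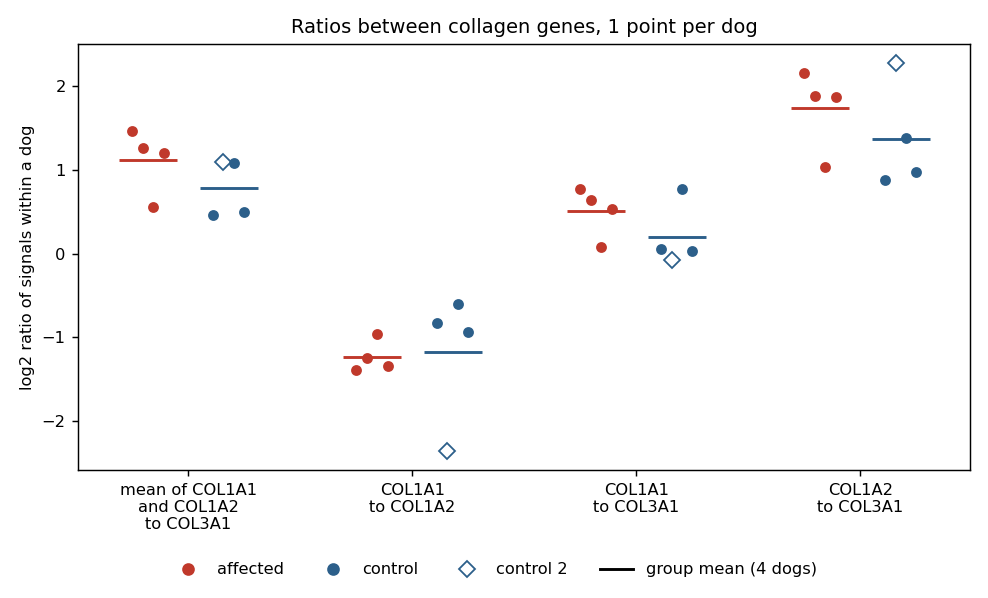
Log2 ratio between collagen genes within each dog (vertical axis), affected left of control, with bars at group means of 4 dogs. For type I to type III, 3 affected dogs lie above all controls and affected 3 lies at 0.56, while control 2 (open diamond) is at the extremes of both ratios with COL1A2, drawn from its brightest probe set 1582723_at and not seen on 1594426_at for COL1A1 to COL1A2, where control 2 is at 0.65.

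Heart muscle signal differed widely between the leaflets, and its correlation with each collagen was negative but did not pass the adjustment. Of 23 listed cardiac muscle markers 14 were tested, and their mean log2 signal was 12.48, 13.36, 10.27 and 12.14 in affected dogs and 12.10, 13.92, 11.38 and 12.82 in controls. Their summed signal ran from 30720 to 235668 in affected dogs and from 60308 to 294071 in controls, with none of them at the floor in every dog of a group. Control 2 had the most and affected 3 the least. COL1A1 had r = -0.661 with this mean over the 8 dogs (exact permutation p = 0.0940, 0.179 adjusted, rho = -0.619, exact p = 0.115), and COL3A1 had r = -0.687 (exact p = 0.0622, 0.131 adjusted, rho = -0.500, exact p = 0.216). COL1A2 had r = -0.611 (exact p = 0.15) with rho = -0.357 (exact p = 0.389). Without the 2 dogs farthest from the median of each collagen, r was -0.364 for COL1A1, -0.130 for COL1A2 and -0.748 for COL3A1. Within the 4 affected dogs r was -0.788 for COL1A1, -0.452 for COL1A2 and -0.891 for COL3A1. Within the 4 controls it was -0.889, -0.851 and -0.792. Affected 2, with a marker mean of 13.36, had a COL1A1 signal of 8781, while control 2, at 13.92, had 1351. The cause of the low collagen signal of control 2 was not tested. With the marker mean as a covariate in limma, the difference was -0.02 ± 0.54 for COL1A1, 0.21 ± 0.33 for COL1A2 and -0.33 ± 0.47 for COL3A1, with adjusted p of 0.990, 0.817 and 0.793.

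**Figure D4:**
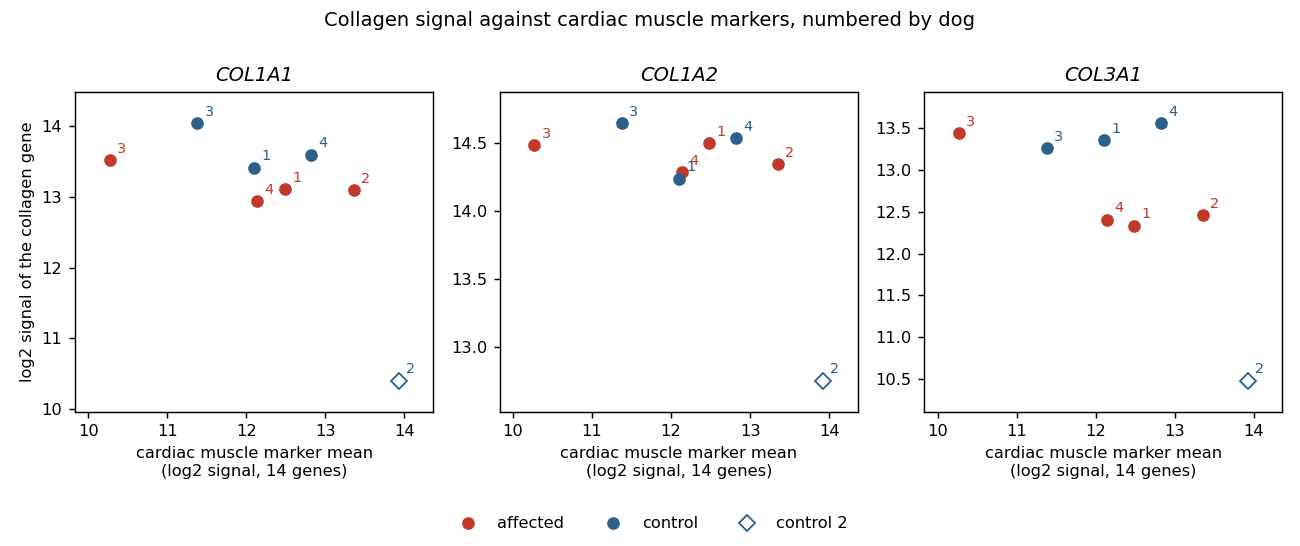
Log2 signal of the brightest probe set of each collagen gene (vertical axes) against the mean log2 signal of 14 cardiac muscle markers (horizontal axes), with 1 point per dog, numbered within its group. Control 2 (open diamond) has the highest marker mean, at 13.92, and the lowest collagen signal in each panel. Affected 2 is next on the horizontal axis, at 13.36.

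Control 2 was not low in all matrix genes alike. Its signal was 0.101 times the mean of the other controls for COL1A1, 0.301 times for COL1A2 and 0.132 times for COL3A1. Several genes of the collagen lists were similarly low in control 2: the value was 0.140 for COL5A1 and 0.125 for COL5A2, chains of the type V collagen that starts type I fibrils, 0.0943 for PCOLCE, which speeds removal of the procollagen tail, and 0.0502 for POSTN, a matrix protein that binds collagen. It was 0.594 for DCN, a proteoglycan that coats fibrils, 0.502 for SERPINH1, the collagen chaperone, and 0.806 for SPARC, a collagen-binding glycoprotein. Control 2 was the lowest dog for 31 of the 52 genes tested in the collagen lists described next. Markers of the interstitial cells were also lowest in control 2, with a mean log2 signal of 12.39, against 13.92 to 14.11 in the other controls. These markers were not low alike: FBLN1 was at 0.137 and S100A4 at 0.106 times the mean of the other controls, but DPT was at 0.507, DCN at 0.594 and VIM at 0.760. Its summed macrophage marker signal was also the lowest, at 1356, where the 13 markers summed to 17765 to 42874 in affected dogs and up to 18152 in controls. Beyond the muscle covariate above, the part of these cell types in the collagen result was not tested.

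The genes most like each collagen were found by Pearson's r over the 8 arrays, among 5435 other genes. For COL1A1 they were PKHD1L1 (r = 0.994), the retinol carrier RBP4 (0.994), COL5A2 (0.989), LYSMD2 (0.984) and the matrix glycoprotein FBLN1 (0.983). For COL1A2 they were the neurotrophin receptor NTRK2 (r = 0.995), the secreted matrix protein CCDC80 (0.992), FBLN1 (0.990), the actin-binding TMSB10 (0.986) and the glutamate transporter SLC1A1 (0.980). For COL3A1 they were TMOD2, which caps actin filaments (r = 0.989), ASPN, a proteoglycan that binds collagen (0.983), the ciliary transport protein IFT20 (0.981), FAM114A1 (0.980) and SPATS2L (0.979). All share the low value of control 2. Without that dog, r with COL1A1 was 0.942 for PKHD1L1 and 0.908 for COL5A2, r with COL1A2 was 0.899 for NTRK2 and 0.725 for SLC1A1, and r with COL3A1 was 0.983 for TMOD2 and 0.945 for ASPN. COL1A1 and COL1A2 shared 1 of their 5 closest genes, FBLN1, and COL3A1 shared 0 with either. These lists rest on control 2: without it 1 of the 15 named places, that of TMOD2 at rank 5, stayed within the first 5, and FBLN1 was at rank 76 for COL1A1 and 53 for COL1A2.

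The other genes of the collagen pathway were read from 8 lists, with the brightest tested probe set for each gene. None of the 52 tested genes passed limma in either direction, and values below are log2 differences with SE. Counts of higher and lower genes are over all 8 dogs, and of all 14705 tested probe sets 7430 were higher. Control 2 was the lowest dog for 31 of the 52 genes, which raises their differences, and counts without it are not given. Among other fibrillar collagens, 3 of 8 listed genes were tested, of which 2 were higher and 1 lower, with a median of 0.30. COL5A1 differed by 0.58 ± 0.61 and COL5A2 by 0.30 ± 0.62, and without control 2 these were -0.12 and -0.45. COL2A1, the cartilage collagen, differed by -0.05 ± 0.22. Among fibril-associated and beaded-filament collagens 5 of 10 were tested, 2 higher and 3 lower, with a median of -0.07. COL14A1, which lies on the surface of fibrils, had log2 signals of 11.13, 10.48, 11.54 and 11.57 in affected dogs and 12.23, 11.07, 12.04 and 12.30 in controls, so all affected dogs were below control 1, 3 and 4. Its difference was -0.73 ± 0.35 (adjusted p in limma 0.658). COL6A3 differed by -0.71 ± 0.81 and COL22A1 by 0.37 ± 0.31. COL6A3 was at the floor in affected 1, and its difference was -0.090 without that dog and -1.39 without control 2, while COL22A1 was at 0.15 without affected 2.

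Genes that modify and fold procollagen were split, with 8 of 21 tested, 4 higher and 4 lower, and a median of 0.11. P3H4, a partner of the hydroxylases of procollagen, differed by 0.70 ± 0.36, the prolyl isomerase PPIB by 0.60 ± 0.33, SPARC by 0.23 ± 0.28, SERPINH1 by -0.06 ± 0.31 and P4HA1, a subunit of prolyl hydroxylase, by -0.08 ± 0.46. Without control 2 PPIB was at 0.29. Among genes of procollagen export and propeptide removal 7 of 17 were tested, 3 higher and 4 lower, with a median of -0.13. The export receptor MIA3 differed by -0.53 ± 0.47, the coat protein SEC23A by -0.31 ± 0.39, the coat regulator KLHL12 by -0.28 ± 0.30, the tail-removing protease BMP1 by 0.27 ± 0.38 and its enhancer PCOLCE by 0.33 ± 0.71. Without control 2 PCOLCE was at -0.51, MIA3 at -0.27 and BMP1 at 0.13.

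Among fibril assembly partners 8 of 16 were tested, 7 higher and 1 lower over all 8 dogs, with a median of 0.14. BGN and COMP count as higher at 0.13 and 0.0039, with control 2 at 0.0425 and 0.0655 times the mean of the other controls. FN1, fibronectin, on which collagen fibrils are laid, had signals of 25612, 28370, 17958 and 18884 in affected dogs and 15855, 3606, 17491 and 16373 in controls. Its groups did not overlap, but the step between affected 3 and control 3 was small. FN1 differed by 0.98 ± 0.47 (adjusted p in limma 0.658), and by 0.43 ± 0.23 without control 2. THBS2, a thrombospondin whose loss gives irregular fibrils in mice, went the other way, with log2 signals of 7.47, 9.60, 9.40 and 8.31 in affected dogs and 10.67, 8.04, 11.10 and 10.65 in controls. All affected dogs were below control 1, 3 and 4, while control 2 lay below 3 of the 4. Its difference was -1.42 ± 0.68 (adjusted p in limma 0.658), and -2.11 ± 0.47 without control 2 (0.236). POSTN differed by 1.81 ± 0.94, and by 0.82 without control 2, and DCN by 0.16 ± 0.24, and by -0.03 without control 2.

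**Figure D5:**
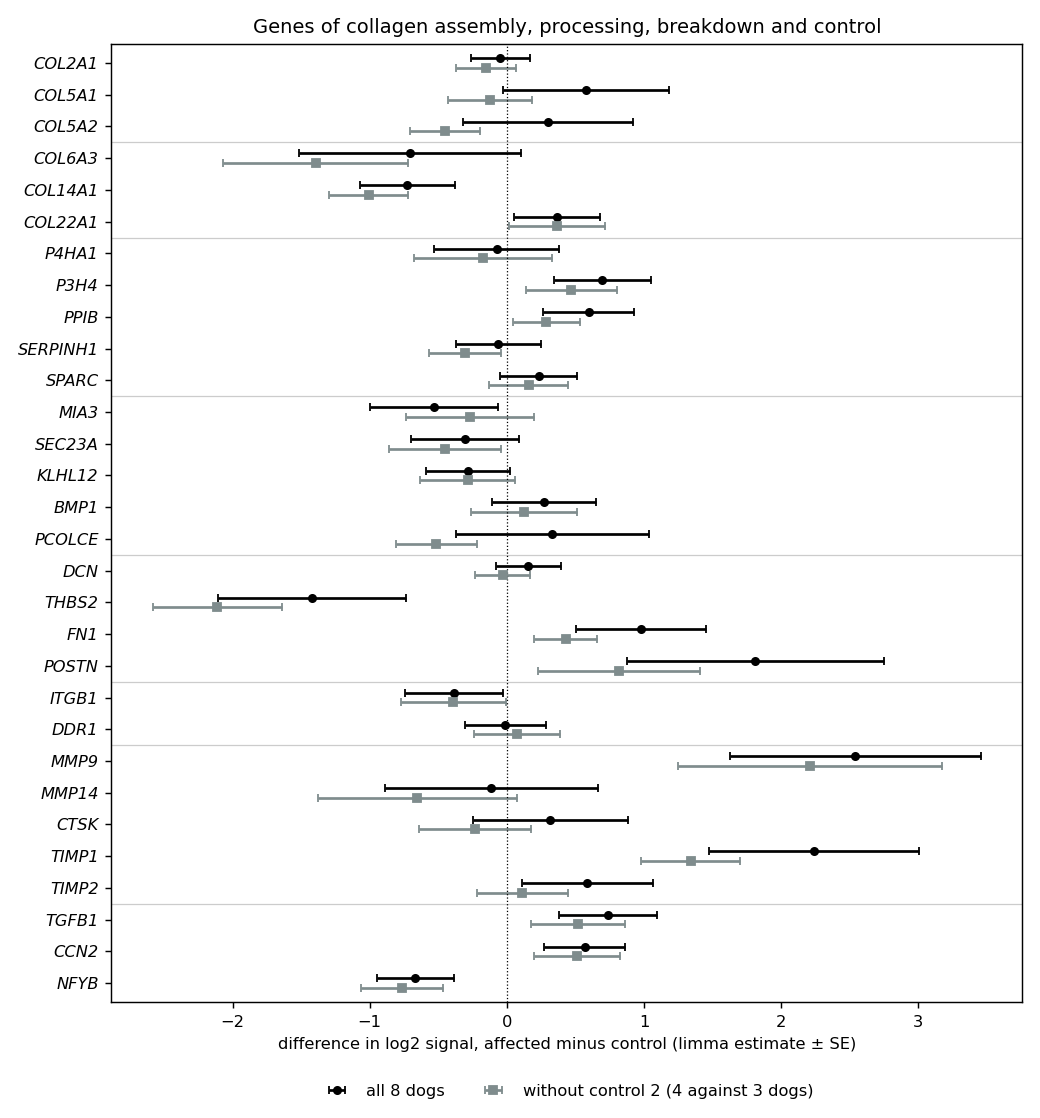
Difference in log2 signal, affected minus control, with the SE from limma (horizontal axis), for 30 genes of collagen assembly, processing, receptors, breakdown and control, with all 8 dogs (black circles) and without control 2 (grey squares). Grey lines separate the lists, and no gene passes the adjusted threshold in either fit.

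Of 10 listed collagen receptors 2 were tested, both lower, with ITGB1, the shared integrin subunit, at -0.39 ± 0.36 and the receptor kinase DDR1 at -0.01 ± 0.30. Among genes of collagen degradation 7 of 12 were tested, 6 higher and 1 lower over all 8 dogs, with a median of 0.32. MMP2 and TIMP3 count as higher at 0.14 and 0.09, with control 2 at 0.0782 and 0.356 times the mean of the other controls. Of the 52 list genes 2, both among these 7, were higher with an unadjusted p under 0.05 in limma, beside 4.02% of all tested probe sets. Those were MMP9, a gelatinase, at 2.54 ± 0.92, and TIMP1, an inhibitor of such proteases, at 2.24 ± 0.76, with adjusted p in limma of 0.572 and 0.545. MMP9 had signals of 978, 95.9, 134 and 1970 in affected dogs and 129, 19.5, 104 and 47.0 in controls, with control 2 at the floor. Its groups overlapped, and only affected 1 and 4 stood far above the controls. No marker of other cell types passed limma (smallest adjusted p 0.238). Higher in affected dogs were 13 of 13 macrophage markers (difference of the mean log2 signal 2.02) and 6 of 6 endothelial markers (0.90). So were 5 of 5 markers of activated myofibroblasts and smooth muscle (0.57). The mean of those 5 ran from 11.16 to 13.03 in affected dogs and from 11.10 to 12.42 in controls. Lower were 13 of 14 cardiac muscle markers (-0.50), 4 of 6 fat cell markers (-1.12) and 3 of 3 cartilage markers (-0.33). The macrophage mean was 6.27 in control 2, against 8.31 to 9.48 in the other controls and 9.63 to 10.91 in affected dogs. The fat cell mean of control 2, at 8.68, lay among the affected dogs, at 8.42 to 8.93. The part of these cell types in the values of the degradation genes was not tested. TIMP1 had log2 signals of 14.86, 13.26, 13.82 and 14.57 in affected dogs and 13.01, 9.19, 12.72 and 12.62 in controls, with no overlap, and was at 1.34 without control 2. TIMP2 differed by 0.59 ± 0.48, the collagen-cutting cathepsin CTSK by 0.32 ± 0.57 and the membrane collagenase MMP14 by -0.11 ± 0.78. Without control 2 these were 0.11, -0.23 and -0.65.

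Among genes of transcriptional and growth factor control of type I collagen 12 of 23 were tested, 11 higher and 1 lower, with a median of 0.38. The growth factor TGFB1, an inducer of collagen genes, differed by 0.74 ± 0.36, and CCN2, a matricellular protein induced by it, by 0.57 ± 0.30. Without control 2 these were 0.52 and 0.51. The single lower gene was NFYB, a subunit of a factor that binds the CCAAT box of the type I collagen promoters, with log2 signals of 7.45, 8.19, 7.67 and 8.29 in affected dogs and 8.83, 8.27, 8.41 and 8.75 in controls. Its groups overlapped by a narrow margin, at affected 4 and control 2, and its difference was -0.67 ± 0.28 (adjusted p in limma 0.614), and -0.76 without control 2. Of the 52 list genes 1, NFYB, was lower with an unadjusted p under 0.05, beside 3.81% of all tested probe sets. The other 2 subunits, NFYA and NFYC, differed by 0.58 ± 0.40 and 0.02 ± 0.22. LARP6, which binds type I collagen messages, differed by 0.14 ± 0.35, with control 2 at 0.404 times the mean of the other controls.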

How the data were processed

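The authors deposited 1 intensity per probe set and array, a linear signal from MAS5 per the submitters' processing notes. The sources used here give no version, detection calls or filters. The authors' arrays already shared a trimmed mean (2% off each end) of 500.1, so scaling changed nothing. Before log2 was taken, a floor of 34.2 (the 20th percentile over all arrays) replaced lower signals. Probe sets above their array's 40th percentile on at least 4 of 8 arrays were tested with limma (3.58.1, R 4.3.3), with an intensity trend, two-sided. Ratios and correlations were tested by exact permutation over dogs (Python 3.11.15). Gene symbols came from the platform annotation, and all 3 collagen genes matched RefSeq identifiers. The brightest tested probe set stood for a gene. The members and gene lists were chosen with earlier results of these data known. Named genes were all members, the 3 genes of each list with the smallest p, 17 genes fixed whatever their values (of which those tested are given) and the 5 genes most correlated with each collagen. NFYA, NFYC and LARP6 were named after their values were seen. Same-numbered dogs were not paired: their deviations correlated at -0.12, 0.41, 0.02 and -0.01. Code was tested on simulated data.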

Additional observations from a re-analysis of the deposited data

Results flagged for a closer look

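A dog was marked where it stood far from the other 3 of its group, by Dixon's ratio of gap to range. Of 88 groups examined 14 were marked, and chance marks about 1 in 20. Control 2 was the lowest control in 10 cases, all on the log2 scale: COL1A1 on 1585698_at at 9.23 (mean of the other controls 12.36), COL1A2 on 1594426_at at 9.75 (13.30), COL3A1 on 1591762_at at 10.48 (13.40), COL2A1 at 8.98 (9.40), COL5A2 at 10.44 (13.44), PCOLCE at 9.72 (13.11), THBS2 at 8.04 (10.81), FN1 at 11.82 (14.02), CTSK at 10.84 (13.04) and TIMP1 at 9.19 (12.78). These genes come from the same array and are not independent.

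The other 4 marks were affected 3, highest of the affected dogs for COL3A1 on 1591762_at at 13.44 (mean of the others 12.40), affected 4, lowest for COL1A1 on 1585698_at at 11.27 (12.06) and for COL2A1 at 9.09 (9.30), and control 3, highest of the controls for the COL1A1 to COL3A1 log2 ratio at 0.78 (0.0037).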

How the results depend on the processing

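The main limits are 4 dogs per group, breed that changes with disease, and control 2. Under the other settings tried no collagen difference passed the adjusted threshold except COL1A2 on 1594426_at without control 2 and affected 3. On that probe set affected 3 was the highest affected dog and control 2 the lowest control, so leaving out both had to lower the difference. Leaving out each dog in turn gave -0.52 to 0.70 for COL1A1, -0.072 to 0.56 for COL1A2, -0.74 to 0.29 for COL3A1, -0.45 to 0.14 for the COL1A1 to COL1A2 ratio, 0.22 to 0.53 for the type I to type III ratio, and 0 to 1 called probe sets array-wide. On single probe sets it gave -0.49 to 0.66 (1585698_at), -1.11 to 0.19 (1594426_at), -0.22 to 0.52 (1589596_at), -0.47 to 0.44 (1594427_at) and -0.28 to 0.11 (1593386_at). For pathway genes the ranges that crossed 0 were -0.15 to 0.0029 for COL2A1, -0.12 to 0.97 for COL5A1, -0.45 to 0.61 for COL5A2, -0.36 to 0.26 for P4HA1, -0.31 to 0.12 for SERPINH1, -0.62 to 0.027 for SEC23A, -0.031 to 0.54 for BMP1, -0.51 to 0.72 for PCOLCE, -0.031 to 0.26 for DCN, -0.25 to 0.14 for DDR1, -0.65 to 0.39 for MMP14 and -0.23 to 0.55 for CTSK.

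Directions also turned without control 2 and affected 3, at -0.64 for COL1A1 (-0.54 on 1585698_at), -0.10 for COL1A2 (-0.62 on 1594427_at), -0.23 for COL5A1, -0.62 for COL5A2, -0.75 for PCOLCE, -0.028 for DCN, 0.23 for DDR1 and -0.29 for CTSK, and that fit called 128 probe sets. With the cardiac muscle covariate they turned at -0.020 for COL1A1, -0.11 for 1594427_at, -0.0078 for COL5A2, -0.068 for PCOLCE and 0.10 for DDR1. Array weights, which gave control 2 a weight of 0.369, put COL1A1 at -0.31, COL1A2 at 0.019 and COL3A1 at -0.68. A floor at the 40th percentile gave -0.045 for 1594427_at and 0.19 for MMP14. Quantile normalization gave -0.12 for DCN, 0.013 for DDR1 and 0.14 for the COL1A1 to COL1A2 ratio, which was 0.21 with the mean of all tested probe sets and 0.52 with the second brightest COL1A2 probe set. That probe set, chosen after seeing the data, put COL1A2 to COL3A1 at -0.21 and type I to type III at 0.048. The SD of COL3A1, affected minus control, was -0.94 with all dogs and 0.37 without control 2, also chosen after seeing the data. The cause was not tested. With the replicate number as a block, COL1A1 was at 0.30 (adjusted p in limma 0.889), COL1A2 at 0.36 (0.771), COL3A1 at -0.0082 (0.996) and the type I to type III ratio at 0.34 (exact p = 0.375), and 4 probe sets were called array-wide. The exact test of the ratio in these blocks cannot give a p under 0.125. Without control 2, chosen after seeing the data for the correlations, 0 relations passed, where 7 of 19 did with all dogs.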
